A study of Coccomyxa subellipsoidea C-169 with 6 samples.

Results

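The 97 genes described here are those whose transcripts were less abundant in CG 2 and CG 3 than in AG cells of the green alga *Coccomyxa subellipsoidea* C-169, while their level in CG 1 stayed near that of AG. CG cells were supplied with 2% CO2 and AG cells with 0.04% CO2, and both were grown under continuous light in Bold's Basal Medium, without any genetic change to the strain, and collected on day 4. Each group had 3 libraries, CG 1 to CG 3 and AG 1 to AG 3, described by the study as biological replicates, and digital gene expression sequencing gave 1 read count per gene and library. A gene was chosen if its mean level in AG was at least 20 CPM (counts per 1000000 counts of the library), if CG 1 lay between 0.8 and 1.25 times the AG mean, and if CG 2 and CG 3 each lay at or under 0.5 times the AG mean. The rule left 8 identifiers aside, of which 0 would have met it. It took 97 genes, or 1.03%, of the 9409 in the table, and 1.54% of the 6292 genes that reached the AG minimum. Since the levels in all 6 libraries chose the genes, their values in these libraries are a description, and the counts of them called by a fit across all genes, given last, are no independent test. An RNA level here is a share of the library, so fewer transcripts per cell and more RNA from other genes cannot be told apart.

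Green algae adjust transcription to the supply of inorganic carbon. In air many of them run a CO2-concentrating mechanism, which brings bicarbonate into the cell and turns it into CO2 near the carbon-fixing enzyme RuBisCO, and genes of this mechanism are typically expressed less when CO2 is ample. Phosphate, which algae need for nucleic acids and membrane lipids, enters the cell through dedicated transporters.

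Sums of counts were 2674507 to 3740989 in the CG libraries and 3825993 to 4969639 in the AG libraries, and CG 1 was the shallowest with 2674507 counts, close to the 2724210 of CG 2. At least 1 count was found for 9067 to 9132 genes in CG and for 9142 to 9190 genes in AG. The genes below are defined by a gap between CG 1 and the other CG libraries. The parts of depth and of RNA quality in that gap were not tested. With 1 library on its side of the gap, a trait of the culture and a trait of the library cannot be told apart.

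The genes that CG 1 did not follow were the smaller part of those lowered in the other CG libraries. Of the 6292 genes that reached the AG minimum, with the 8 identifiers left aside, CG 2 and CG 3 both lay at or under 0.5 times the AG mean in 857. CG 1 was at or under 0.5 times the AG mean in 477 of these (55.7%), and between 0.5 and 0.8 times in 274 (32.0%). It was inside the window of the rule in 97 (11.3%, exact Clopper-Pearson 95% interval 9.27 to 13.6, which covers counting over genes only) and above it in 9 (1.05%). The median CG 1 level over the 857 genes was 0.462 times the AG mean, so CG 1 was on the lower side of AG for most of them. Among the 712 genes that were at least 2-fold higher in both CG 2 and CG 3 than in AG, CG 1 was inside the same window in 47 (6.60%), and at least 2-fold higher in 428 (60.1%).

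Within the 97 genes the 3 CG libraries took separate ranges because the rule separates them. The CG 1 level was 0.801 to 1.24 times the AG mean, with a median of 0.914. In CG 2 it was 0.129 to 0.4997 times, with a median of 0.405, and in CG 3 it was 0.135 to 0.497 times, with a median of 0.375. On the log2 scale the median ratios to the AG mean were -0.13, -1.30 and -1.41 in CG 1, CG 2 and CG 3. CG 1 was under the AG mean in 75 genes and over it in 22. These genes were cut from the 857 lowered ones, whose median CG 1 ratio was 0.462. That choice by itself favours the lower side of the window. The split was not set against other genes, and nothing is read from it. The CG 1 level was below all 3 AG libraries in 54 genes, within their range in 29 and above all 3 in 14. The 54 genes, in which every CG library was below every AG library, compare with 32.6% of the 6292 genes that reached the AG minimum, and nothing is read from this since the rule fixed CG 2 and CG 3.

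**Figure D1:**
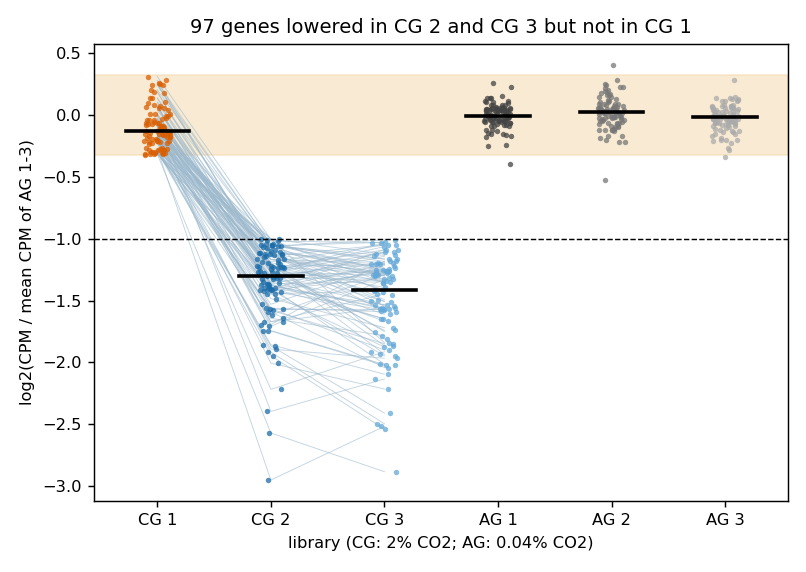
Level of each of the 97 genes in each library, as the log2 ratio of its CPM to the AG mean, with CG libraries on the left and AG libraries on the right. The medians of CG 1, CG 2 and CG 3 were -0.13, -1.30 and -1.41, and the bounds of the rule produce the gap between CG 1 and the other CG libraries.

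The rule set no bound between CG 2 and CG 3, whose levels were mostly close to each other, but it put the same upper cut on both. CG 2 and CG 3 differed by less than 1.25-fold in 70 of the 97 genes. A shared cut by itself favours close levels, and this count was not set against other genes, so nothing is read from it. CG 3 was the lower of the pair in 66 (68.0%), against 489 (64.3%) of the 760 other genes lowered in both. Across the 97 genes the ratios of CG 2 and CG 3 to AG correlated at a Spearman rho of 0.565 and, on the log2 scale, a Pearson r of 0.726. These ratios share the AG mean as denominator and were chosen under the same cut, so the correlations are a description only. The widest gap was 1.79-fold, in gene 37630. Its level was 79.3, 48.8 and 27.3 CPM in CG 1, CG 2 and CG 3, against 101, 96.7 and 95.8 CPM in AG 1, AG 2 and AG 3. All CG libraries of that gene were below all AG libraries, and CG 2 lay just inside the cut.

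Most of the genes lay at the less lowered end, which the window on CG 1 by itself favours. Their mean level in CG 2 and CG 3 was 2.04- to 6.58-fold lower than in AG, with a median of 2.53-fold. A level at least 3-fold lower in both CG 2 and CG 3 was found in 14 of them (14.4%), against 406 (53.4%) of the other 760. At least 5-fold lower in both were 2 (2.06%), against 180 (23.7%) of the others. Seen from the whole set of 857, the 388 genes that were 2- to 3-fold lower held 76 of the chosen genes (19.6%), the 263 that were 3- to 5-fold lower held 19 (7.22%), and the 206 with a larger difference held 2 (0.971%). The median CG 1 ratio in those classes was 0.586, 0.423 and 0.224, so the further a class lay under AG in CG 2 and CG 3, the further it lay under AG in CG 1. Over the 852 genes with counts in all CG libraries, the log2 ratios of CG 1 and of the CG 2 and CG 3 mean correlated at a Spearman rho of 0.570 and a Pearson r of 0.713. These are values across genes, which are not independent, and both ratios share the AG mean. Since these ratios go together, choosing genes with CG 1 near AG by itself favours those less lowered in CG 2 and CG 3. The shares of chosen genes given above are therefore a description, and nothing is read from them.

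**Figure D2:**
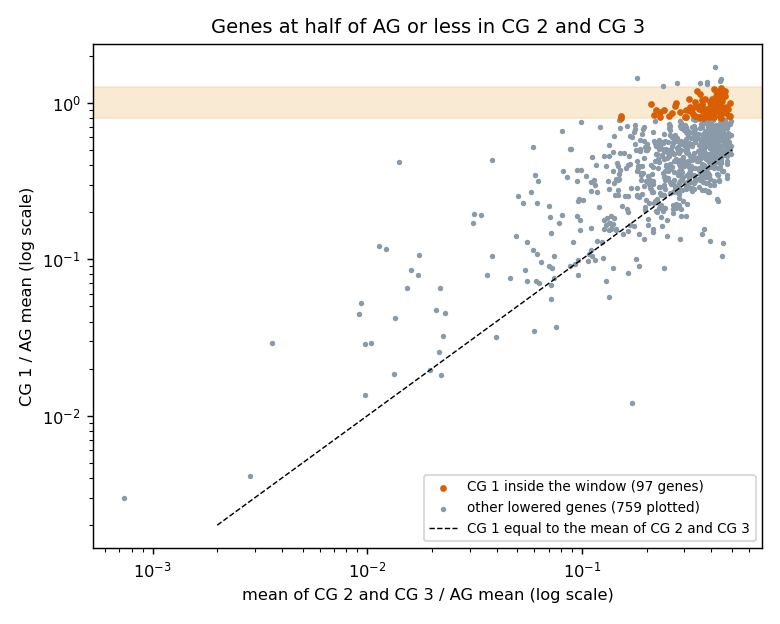
Level in CG 1 against the mean level in CG 2 and CG 3, each as a ratio to the AG mean on log axes, for the 97 genes and for 759 of the 760 other genes lowered in CG 2 and CG 3 (the remaining gene had no CG 1 count). The 97 genes fill the band of the rule and lie mostly at the less lowered end, 76 of them 2- to 3-fold lower. The window on CG 1 by itself favours that end, so nothing is read from this position.

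The genes covered a wide range of abundance. Their AG mean was 20.8 to 4548 CPM with a median of 115.8 CPM, against a median of 150.7 CPM for the 760 other lowered genes and 66.3 CPM for all genes that reached the minimum. They made up 43 of 327 lowered genes (13.1%) at 20 to 100 CPM in AG, 44 of 446 (9.87%) at 100 to 1000 CPM, and 10 of 84 (11.9%) at or over 1000 CPM. The median length of their exon models, recovered from counts and RPKM, was 1263 bases, against 1184 for the other lowered genes and 1413 for all genes at the minimum. Their median coefficient of variation within AG was 6.06% (0.925 to 28.2%), against 7.46% for all genes at the minimum. Those genes had a lower median abundance, and the coefficients were not compared at equal abundance, so nothing is read from this difference. Reads shared between similar sequences could touch the 4 genes with fractional counts (54922, 32065, 62533 and 64789), or 4.12%, against 11.4% of all genes at the minimum.

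Summed over the 97 genes, the level was 31261 CPM in CG 1, 12129.6 CPM in CG 2 and 11748 CPM in CG 3, against 32832, 31718 and 32478 CPM in AG 1, AG 2 and AG 3 (mean 32343 ± 569, SD, n = 3). The genes thus took 3.13% of the CG 1 library and 1.21% and 1.17% of CG 2 and CG 3, against 3.17 to 3.28% of the AG libraries. The CG 1 sum was 0.967 times the AG mean, and those of CG 2 and CG 3 were 0.375 and 0.363 times. The 10 most abundant genes held 59.0% of the AG sum. The other 87 summed to 12359.8, 5274 and 4859.5 CPM in CG 1, CG 2 and CG 3, against 13209, 13575 and 13039.5 CPM in AG. The bounds of the rule on each gene hold for any such sum too. They put CG 2 and CG 3 at or under 0.5 times the AG mean and CG 1 at 0.8 to 1.25 times. Nothing is therefore read from the order of these sums.

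**Figure D3:**
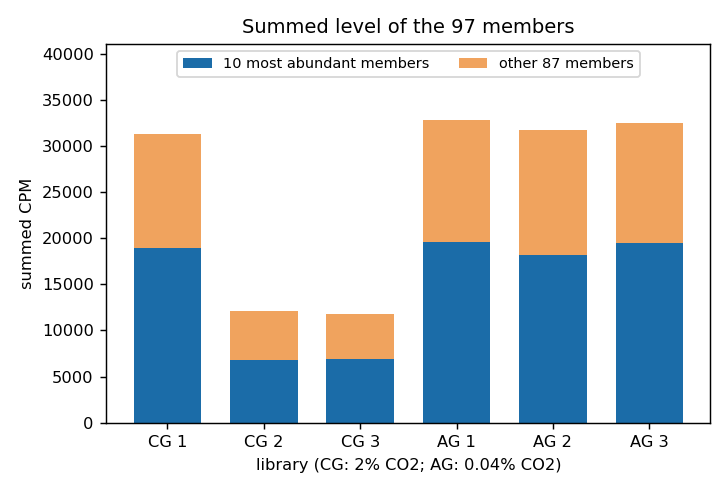
Summed CPM of the 97 genes in each library, split into the 10 most abundant and the other 87, with the CG libraries on the left of the AG libraries. CG 2 and CG 3 reach 12129.6 and 11748 CPM, while CG 1 at 31261 CPM is close to the AG libraries at 31718 to 32832 CPM. The bounds of the rule produce this gap.

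The most abundant gene was 33358, whose product is not described in the sources used here. Its level was 4305, 1355 and 1117 CPM in CG 1, CG 2 and CG 3 (mean 2259 ± 1776, SD, n = 3), against 4607, 4618 and 4418 CPM in AG 1, AG 2 and AG 3 (mean 4548 ± 113, SD, n = 3). CG 1 was just under the lowest AG library, while CG 2 and CG 3 were 3.68-fold under the AG mean. It ranked 9 among all genes by AG mean CPM and 2 by AG mean RPKM, which divides by length, at 10625 RPKM for an exon model of 428 bases. Gene 54922 followed at 4788, 1629.7 and 2047 CPM in CG 1, CG 2 and CG 3, against 4488, 4009.7 and 4566 CPM in AG. Here CG 1 exceeded all AG libraries, and the counts of this gene were partly fractional.

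Gene 36594 had 1649, 647 and 567 CPM in CG 1, CG 2 and CG 3, against 1729, 1548 and 1765 CPM in AG. Gene 66333 had 1636, 592 and 386 CPM in CG, against 1686, 1336 and 1653 CPM in AG. In both, CG 1 lay within the AG range and the other CG libraries were far below it. Gene 30799 had 1019, 461 and 493 CPM in CG, against 1259, 1206 and 1222 CPM in AG. Gene 65342 had 1038, 295 and 255 CPM in CG, against 1230.3, 1039 and 1283 CPM in AG, the widest difference of the 10 most abundant (4.31-fold for the mean of CG 2 and CG 3). Both had CG 1 below all AG libraries, narrowly so in 65342.

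Gene 53985 had 1025, 515 and 429.8 CPM in CG 1, CG 2 and CG 3, against 1204, 1232 and 1097 CPM in AG, and gene 17524 had 921, 411 and 487 CPM in CG, against 1020.0, 1036 and 1089 CPM in AG. CG 1 was below every AG library in each. Gene 36901 had 1257, 487 and 561 CPM in CG, against 1238, 1075 and 1205 CPM in AG. Gene 31779 had 1265, 462 and 545 CPM in CG, against 1160.5, 1042 and 1142 CPM in AG. In these last genes CG 1 was the highest of all 6 libraries.

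**Figure D4:**
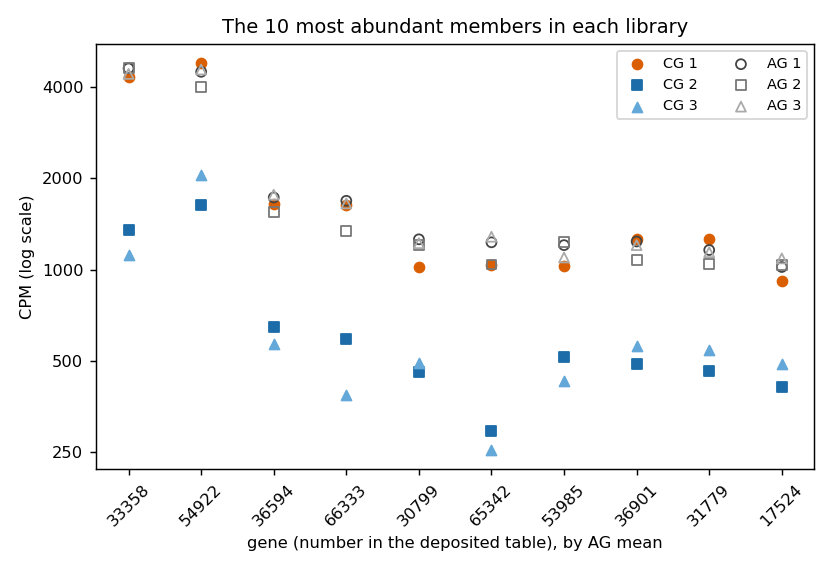
CPM on a log axis of the 10 most abundant of the 97 genes in each library, filled symbols for CG and open symbols for AG. CG 1 lies beside the AG symbols in every gene, and CG 2 and CG 3 lie below them, as for gene 33358 at 4305 CPM in CG 1 and 1355 and 1117 CPM in CG 2 and CG 3.

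The strongest contrasts within CG were in 31935 and 58185, each 6.58-fold lower in the mean of CG 2 and CG 3 than in AG. Gene 31935 had 339, 53.2 and 71.9 CPM in CG 1, CG 2 and CG 3, against 419, 366 and 449.7 CPM in AG. Gene 58185 had 33.3, 6.97 and 5.61 CPM in CG, against 49.7, 28.8 and 45.9 CPM in AG. CG 1 was below all AG libraries in 31935 and between them in 58185, whose AG libraries themselves spread widely and whose CG 2 and CG 3 values rest on 19 and 21 counts.

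Gene 45472 had 137, 40.7 and 27.3 CPM in CG 1, CG 2 and CG 3, against 158, 156 and 148 CPM in AG. Gene 61886 had 75.2, 25.3 and 17.4 CPM in CG, against 88.8, 88.6 and 99.8 CPM in AG, and gene 20364 had 86.4, 29.0 and 24.6 CPM in CG, against 101, 105 and 109 CPM in AG. In all 3 of these genes CG 1 was below every AG library and at least 2-fold above CG 2 and CG 3. The remaining genes with the lowest levels in CG 2 and CG 3 relative to AG were of low abundance. Gene 41010 had 32.2, 6.24 and 7.48 CPM in CG, against 29.0, 39.99 and 29.6 CPM in AG. Gene 61910 had 35.5, 8.44 and 10.4 CPM in CG, against 33.0, 46.0 and 38.8 CPM in AG. CG 1 lay within the AG range in both, whereas it was below AG in 66698 (25.8, 8.08 and 5.35 CPM in CG, against 29.3, 35.3 and 28.8 CPM in AG) and in 55397 (26.9, 8.44 and 8.02 CPM in CG, against 28.0, 31.6 and 34.4 CPM in AG).

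Only 2 of the 97 genes had a description in the sources used here, which describe 219 genes that the study placed under enriched terms on these same libraries and so are not a neutral sample of the table. Gene 54617 is described as phosphate transporter 1;9, a name from *Arabidopsis*, where this family takes up inorganic phosphate at the plasma membrane. It had 165, 83.7 and 67.4 CPM in CG 1, CG 2 and CG 3, against 195, 225 and 197 CPM in AG. Gene 54004 is described as a Serinc-domain serine and sphingolipid biosynthesis protein, a family of membrane proteins named for incorporating serine into lipids. It had 186, 85.9 and 77.3 CPM in CG, against 227, 238 and 226 CPM in AG. In both genes CG 1 was below every AG library and near the lower bound of its window, at 0.803 times the AG mean in 54617 and 0.806 times in 54004.

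The other described phosphate transporters, picked out after their values were seen, did not show this pattern. Gene 13678 (phosphate transporter 2;1) was upregulated in CG, at 119, 211 and 209 CPM in CG, against 8.07, 11.2 and 10.7 CPM in AG (log2 fold change 4.08, edgeR adjusted p = 5.93e-05). Genes 19750 (4;1) and 26312 (4;5) were downregulated, with log2 fold changes of -1.90 and -1.29 (edgeR adjusted p = 0.00022 and 0.000134). CG 1 of 19750 had 43.0 CPM, against 112 to 121 CPM in AG, and that of 26312 had 103 CPM, against 234 to 267 CPM in AG, so that CG 1 was below every AG library in both, as were CG 2 and CG 3. Of 17 keyword lists, 12 held described genes and 2 of these held 1 of the 97 each: the 31 transporters (21 called higher in CG and 10 lower) and the 8 lipid genes (4 called higher and 4 lower). The other lists with described genes held 0 of the 97, the longest being 41 oxidoreductases (19 called higher and 22 lower), 34 photosystem, antenna and electron carrier genes (1 called higher and 33 lower) and 17 genes of nitrogen and amino acids (14 called higher and 3 lower). No described gene of these lists went uncalled, against 52.2% of all genes called in either direction, as the study had taken them from its enriched terms, so nothing is read from these counts.

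The genes were spread over the genome. All 97 were matched to the RefSeq annotation of the assembly Coccomyxa subellipsoidae v2.0, as were 9372 of the 9409 genes, and lay on 25 of the 29 scaffolds that hold genes of the table, with at most 13 on 1 scaffold, where 534 genes reached the AG minimum. Directly neighbouring pairs were 3 in number: 64092 and 31935, 60075 and 68195, and 55397 and 31992. Gene 64092 had 60.9, 20.6 and 26.7 CPM in CG 1, CG 2 and CG 3, against 66.1, 68.2 and 67.2 CPM in AG, beside the much stronger contrast of 31935. Gene 60075 had 81.9, 33.4 and 33.4 CPM in CG, against 109, 91.7 and 96.99 CPM in AG. Its neighbour 68195 had 218, 97.6 and 84.2 CPM in CG, against 241, 225 and 266 CPM in AG. CG 1 was below all AG libraries in both of that pair. Gene 31992, beside 55397, had 53.5, 18.0 and 17.6 CPM in CG, against 54.5, 52.5 and 52.3 CPM in AG, with CG 1 inside the AG range. Reads of either strand were counted together, and the genes of these pairs do not overlap in that annotation.

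Between 66333 and 33358, both among the 10 most abundant, lay 1 gene, 33357, which did not share their pattern: it had 129, 62.0 and 44.9 CPM in CG 1, CG 2 and CG 3, against 70.4, 66.1 and 69.4 CPM in AG. CG 1 was there the highest of all libraries, and CG 2 and CG 3 were below AG. Near them, 42319 had 199, 122 and 117 CPM in CG, against 209, 201 and 219 CPM in AG, and 53620 had 38.9, 21.7 and 22.5 CPM in CG, against 41.4, 49.4 and 41.3 CPM in AG. Both came close to the rule and missed the cut, on CG 2 and CG 3 in 42319 and on CG 3 in 53620. Over all 97 genes, the direct neighbours that reached the AG minimum were 135, of which 32 (23.7%) were lowered in CG 2 and CG 3 and 6 were among the 97. For the 760 other lowered genes the share lowered was 25.4% of 1064 neighbours. Of all genes at the minimum, 13.6% were lowered and 1.54% were among the 97.

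**Figure D5:**
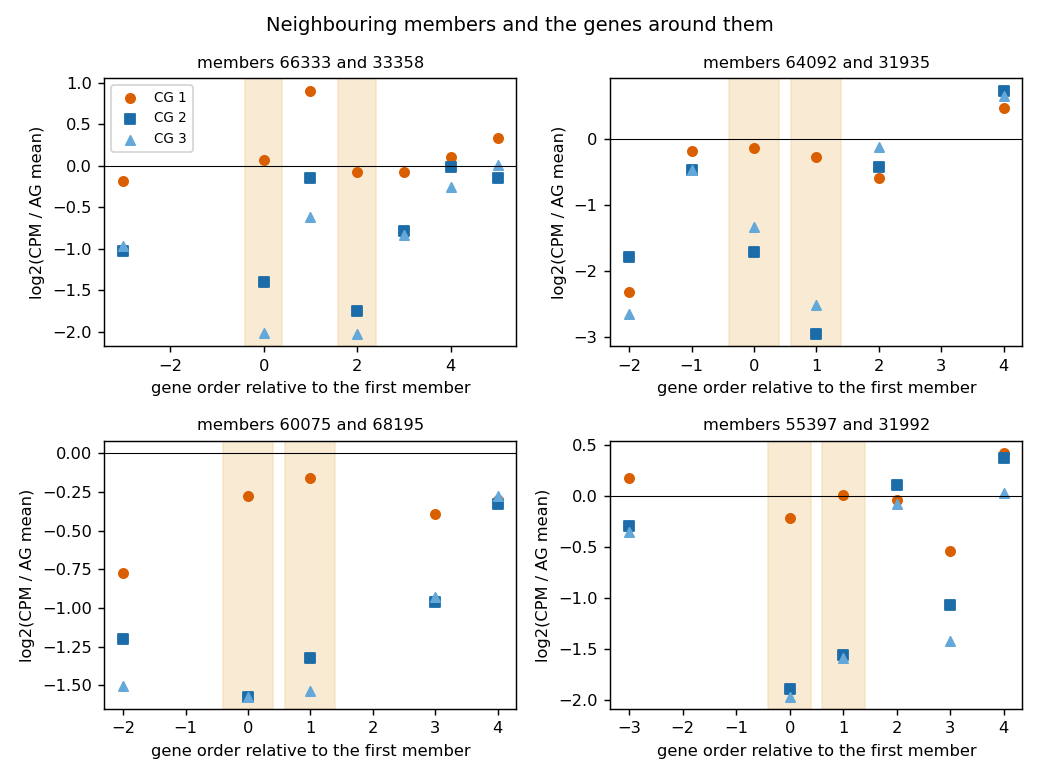
Levels relative to the AG mean of the genes around the neighbouring members, in order along the scaffold, as log2(CPM / AG mean) in each CG library, with the members shaded and only genes with an AG mean of at least 20 CPM drawn. In the shaded genes CG 1 lies near the AG mean (the line at 0) and CG 2 and CG 3 well below it, as in 31935 (339, 53.2 and 71.9 CPM in CG 1, CG 2 and CG 3), while the genes around them range from lower in all CG libraries to higher.

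Counting error alone bears on how firmly a gene sits inside the rule. For each CG library, the 95% exact Clopper-Pearson interval sets its count against the pooled AG counts. It therefore covers counting error only and leaves out the spread between cultures. The reads carry no molecular identifiers, so copies of 1 molecule are not told apart. The CG 1 interval was inside the window in 42 genes, the CG 2 and CG 3 intervals were under 0.5 in 49, and all of them were inside the cuts in 24. The lowest count behind a CG 1 value was 58, and behind a CG 2 or CG 3 value 17.

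Genes at the edges of the rule differed little from those left outside. Nearest inside the lower bound of CG 1 were 62226, 58185 and 54617, at 0.801, 0.803 and 0.803 times the AG mean, and nearest outside were 68054, 48401 and 33051, at 0.799, 0.789 and 0.788 times. At the upper bound, 64621, 64789 and 53530 were inside at 1.24, 1.21 and 1.20 times, and 61281, 54444 and 58507 outside at 1.28, 1.31 and 1.34 times. At the CG 2 cut, 37630, 49281 and 64621 were inside at 0.4997, 0.499 and 0.498 times, and 46666, 56666 and 53837 outside at 0.503, 0.504 and 0.505 times. At the CG 3 cut, 47579, 40304 and 31779 were inside at 0.497, 0.490 and 0.489 times, and 12621, 12782 and 41549 outside at 0.5002, 0.505 and 0.507 times. The least abundant of the 97 were 14530, 40304 and 38534, with AG means of 20.8, 30.6 and 31.0 CPM, and 18415, 11573 and 11508 missed the minimum at 15.4, 15.0 and 14.5 CPM.

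In a comparison of CG with AG over all 3 libraries each, most of the 97 genes did not pass the test. The edgeR quasi-likelihood test with Benjamini-Hochberg adjustment over 8637 genes called 31 of them lower in CG and 0 higher (64 of the 97 had an unadjusted p under 0.05, all on the lower side), while 25% of all genes were called lower. Since the rule used the same contrast, nothing is read from this count. Their median log2 fold change was -0.91 (-1.58 to -0.58), against -0.01 over all genes tested. The genes called had a median CG 1 ratio of 0.829, against 0.953 in the 66 not called, and their CG 2 and CG 3 levels were alike at 0.389 and 0.395 times the AG mean. Without CG 1, the same test called 97 of the 97 lower, beside 34.2% of all genes, with a median log2 fold change of -1.44. The fits and the rule use the same values, so nothing is read from this count or from the split by CG 1 ratio. DESeq2 on all 6 libraries called 67, beside 25.1% of all genes, and edgeR with the replicate number as a block called 65, beside 22.8%.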

How the data were processed

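RNA of 3 CG and 3 AG cultures was sequenced by digital gene expression after TRIzol extraction. The authors mapped short reads with Bowtie (version not given in the sources used here) to transcript sequences of C-169, and counted reads of both directions together. The deposited table holds read counts, of which 8.06% were not whole (tolerance 1e-06, in 1206 genes), and RPKM values that the authors computed from them. The study describes reads matched to a single gene, which would give whole numbers, and the sources used here give no origin for the fractions. For this reason the deposited values were treated like expected counts. The table also holds the authors' means per group, and their log2 fold change and FDR for each gene, none of which was used. Apart from these and the gene identifiers, every column of numbers belonged to a sample.

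CPM was computed from the counts as deposited. For the tests counts were rounded and fitted in R 4.3.3 with edgeR 4.0.16 (TMM scaling, filterByExpr, robust quasi-likelihood fit, Benjamini-Hochberg adjustment, threshold 0.05). Alternatives were other scalings and filters, a replicate block, DESeq2 1.42.0, limma 3.58.1 on log2 RPKM, other bounds of the rule and each library left out. The fit was also run on simulated data, in which libraries of a group shared the same level of each gene. That run therefore says nothing about a library that departs from its group, as CG 1 does in these genes. Tables and figures were made with matplotlib 3.10.9, scipy 1.17.1, numpy 2.4.6 and pandas 2.3.3 under Python 3.11.15. Depth was 2674507 to 4969639 counts per library, and precision at low counts is limited by it. P-values measure the spread between these cultures.

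The genes and lists were chosen with earlier results of these data known. Genes named are the 10 with the highest AG mean, the 10 with the lowest level in CG 2 and CG 3 relative to AG, those described, those nearest each bound of the rule, and neighbouring members. Gene 37630 is also the one with the widest gap between CG 2 and CG 3. Promoter and protein sequences were not used here. Positions served only to find neighbours.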

Additional observations from a re-analysis of the deposited data

How the results depend on the processing

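The median log2 fold change of the 97 genes was -1.44 to -0.68 under the alternatives run (main value -0.91). The cuts of the rule on CG 2 and CG 3 made a negative sign all but certain, so nothing is read from the sign. How many were called lower depended on the setting: 31 with edgeR (beside 25% of all genes), 20 with scaling by column sums (beside 21.7% of all genes, whose median shifts to 0.08), 65 with a replicate block (beside 22.8% of all genes), 67 with DESeq2 (25.1%), and 48 with limma on log2(RPKM + 1) or log2(RPKM + 0.1) (22.1 and 22%). With 1 library left out it was 0 to 97: 97 without CG 1, 0 without CG 2, 3 without CG 3, and 0, 2 and 1 without AG 1, AG 2 and AG 3, beside 34.2% of all genes called lower without CG 1 and 18.9 to 20.8% without any other library (12 and 22 of the 97 had an unadjusted p under 0.05 in edgeR without CG 2 and without AG 1). Each of these fits, also that without CG 1, had 1 library fewer and so in general less power. The part of power in these counts was not tested. Deviations of same-numbered libraries correlated at -0.034, 0.038 and -0.051. No pairing by replicate number was thus seen, but these values cannot exclude one, and neither the labels nor the study state whether cultures were paired. The number of genes meeting the rule was 181 with a CG 1 window of 0.667 to 1.5 times AG, 45 with one of 0.9 to 1.11 times, 279 and 14 with the cut on CG 2 and CG 3 at 0.667 and 0.333 times AG, and 94 to 148 with 1 library left out (148 without CG 2). Their share of the lowered genes was 10.98 to 14.6% with 1 library left out, against 11.3%. On TMM-normalized CPM 111 genes met the rule, of which 77 were among the 97. Among 560 values of the 35 named genes under 16 alternatives, 431 kept their side of the threshold, 59 lost the call, 70 gained it and 0 changed direction. Nothing is read from the direction, which the rule likewise made all but certain. Counts of 17 to 58 behind the least abundant genes limit their ratios.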

Other observations

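In 9 further genes lowered in CG 2 and CG 3, CG 1 was above the window of the rule, at 1.28 to 1.69 times the AG mean. All of them were chosen by their values and none was tested. Gene 29973, the most abundant, had 805 CPM in CG 1, 289 CPM in CG 2 and 224 CPM in CG 3, against 619.7, 563 and 568 CPM in AG. Gene 17668 had the highest CG 1 ratio, at 84.5, 19.8 and 21.9 CPM in CG, against 54.7, 41.6 and 53.5 CPM in AG. CG 1 exceeded every AG library in both genes, while CG 2 and CG 3 were below every AG library.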
